A study of Mus musculus with 12 samples.

Results

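A set of 6 genes that regulate Schwann cells or carry signals to and from them was followed across sorted mouse skeletal progenitors: the transcription factors Sox10 and Sox2, the ligand Dhh and the receptors Ednrb, Erbb3 and Ngfr. They were chosen by name as 6 of the 18193 genes that have a probe set with a single gene symbol, with the differences of these same arrays already known. Their differences between populations and between JUN arms are therefore given as descriptions without a test of their own. The 6 genes have 14 such probe sets, and all 14 passed the filter on dim probe sets described below. In mouse build GRCm38.p6, per RefSeq, Sox10 lies on chromosome 15 at 79154913 to 79164490, Dhh on chromosome 15 at 98881615 to 98898562 and Sox2 on chromosome 3 at 34649995 to 34652461. Ednrb lies on chromosome 14 at 103814615 to 103844508, Erbb3 on chromosome 10 at 128567523 to 128589635 and Ngfr on chromosome 11 at 95568818 to 95587698.

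The study measured expression on 12 microarrays, 1 for each sample of bone cells sorted by flow cytometry after 2 days of JUN induction. The bones were those of the limbs, skull cap, shoulder blade, spine and ribs, and the sort gave 3 populations of osteoprogenitors, labelled SSC, CSP and Thy. All arrays came from young JUN inducible mice whose mothers received doxycycline in the drinking water, per the labels; samples marked -JUN are taken as not induced. The genotype or treatment that sets this arm apart, the promoter driving JUN and the age of the mice are unknown here. The labels give no sex; Xist, the RNA of the inactive X chromosome in females, read 13.20, 13.12 and 12.49 on the 3 arrays of mouse 3 and 6.11 to 7.29 on the other 9, so the Xist-high mouse lies in the -JUN arm. The 6 groups of 2 arrays were SSC JUN (mice 4 and 7), SSC -JUN (mice 3 and 10), CSP JUN and Thy JUN (mice 4 and 7), and CSP -JUN and Thy -JUN (mice 3 and 3b). Replicate 1 of each JUN group is mouse 4 and replicate 2 is mouse 7, replicate 1 of each -JUN group is mouse 3, and the remaining -JUN array is replicate 3 in SSC and replicate 2 in CSP and Thy. Mouse numbers 3, 4 and 7 each stand on 3 arrays, and p-values between populations measure the spread between arrays that may partly come from the same animals.

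Schwann cells are the glia of peripheral nerves, formed from the neural crest through precursor and immature stages into myelinating or non-myelinating cells. Their precursors depend on the neuregulin receptor ErbB3 and on Sox10, while Sox2 and the neurotrophin receptor p75 are features of immature cells and of the repair cells that appear after nerve injury. c-Jun is known as a driver of that repair state in injured nerve. Bone and periosteum carry nerve fibres with their glia, and Ngfr is also used as a surface marker of bone stromal cells.

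Values are log2 expression on the authors' RMA scale, and a difference of 1 is a doubling. The filter kept probe sets brighter than the array median on 2 or more arrays, and a gene was read from its kept probe set with the highest mean, which left 12516 genes. Population contrasts were fitted with limma over all 12 arrays, and a gene was called at a Benjamini-Hochberg adjusted p under 0.05. Thy1, the surface protein whose name one population bears, was at 7.28 to 8.90 on SSC arrays and 8.04 to 9.63 on CSP arrays, against 12.80 to 13.30 on Thy arrays. Jun read 13.18 and 12.13 on SSC JUN arrays against 12.60 and 12.06 on SSC -JUN arrays, 12.92 and 12.82 on CSP JUN arrays against 13.37 and 13.24 on CSP -JUN arrays, and 13.03 and 12.90 on Thy JUN arrays against 12.81 and 13.65 on Thy -JUN arrays. The Jun probe set thus did not separate the JUN arms in one direction, and whether it reads the induced transcript is unknown here. The mean of the poly-A control probe sets, which read control RNAs usually added before labelling, ranged over 7.74 to 9.95 on SSC arrays, 8.89 to 10.4 on CSP arrays and 10 to 10.9 on Thy arrays.

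Sox10 is the SoxE transcription factor that glial cells of the peripheral nervous system need at every stage. It read 11.49 and 10.73 on SSC JUN arrays against 9.70 and 10.23 on SSC -JUN arrays, and 8.30 and 8.07 on CSP JUN arrays against 7.90 and 6.66 on CSP -JUN arrays. On Thy JUN arrays it read 10.58 and 10.79, against 11.10 and 10.71 on Thy -JUN arrays. All 4 CSP arrays lay below all 8 others. By group mean the order ran from SSC JUN (11.11) through Thy -JUN (10.90), Thy JUN (10.68), SSC -JUN (9.97) and CSP JUN (8.19) to CSP -JUN (7.28). The first pair of neighbours and the second overlapped in this order, and the other 3 pairs did not. Thy had the tightest levels, 10.79 ± 0.22, beside 10.54 ± 0.76 in SSC and 7.73 ± 0.74 in CSP (SD, n = 4 each).

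Sox2 is a SoxB1 factor that holds Schwann cells in an immature state and is known to oppose myelination. It read 9.83 and 9.99 on SSC JUN arrays against 8.19 and 10.06 on SSC -JUN arrays, and 4.10 and 6.74 on CSP JUN arrays against 5.52 and 4.21 on CSP -JUN arrays. On Thy JUN arrays it read 6.46 and 8.09, against 9.37 and 8.41 on Thy -JUN arrays. The SSC arrays of mice 4, 7 and 10 lay between 9.83 and 10.06, that of mouse 3 stood below them, and the lowest Thy array overlapped the highest CSP array. The order of group means was SSC JUN (9.91), SSC -JUN (9.12), Thy -JUN (8.89), Thy JUN (7.27), CSP JUN (5.42) and CSP -JUN (4.86). Only Thy -JUN and Thy JUN among these neighbours did not overlap. Its mean over 4 arrays was 9.52 ± 0.89 in SSC, 5.14 ± 1.24 in CSP and 8.08 ± 1.21 in Thy (SD).

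The 250 bases before the Sox2 start (chr3:34649745-34649994, + strand, RefSeq, GRCm38.p6) are shown because Sox2 is the 1 gene of those matched whose window holds the 6 letters searched for factors of the Sox family. Capitals mark that match to ACAANG, which begins at base 45 counted from the left end.
Sox2: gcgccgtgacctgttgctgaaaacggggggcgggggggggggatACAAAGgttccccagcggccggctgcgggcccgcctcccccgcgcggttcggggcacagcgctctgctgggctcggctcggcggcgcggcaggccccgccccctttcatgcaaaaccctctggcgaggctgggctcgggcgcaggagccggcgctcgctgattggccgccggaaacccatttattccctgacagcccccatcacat
Promoter windows of 300 bases (250 before and 50 after the start) were found for 4 of the 6 genes, namely Sox2, Dhh, Ednrb and Ngfr. ACAANG stood on either strand of 1 of these 4 and of 41.2% of all 32851 promoters of that length. TGANTCA, the letters that JUN-containing AP-1 dimers are known to bind, stood in 0 of the 4 and in 7.81% of all promoters. These are matches of letters, with no overlap between the motifs, and no binding was measured. The Sox2 stretch holds 72.0% G and C, beside 52.4% over the same stretch of all promoters, and 27 CpG pairs.

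Dhh, Desert hedgehog, is the hedgehog ligand that Schwann cells send to the cells forming the perineurium. It read 12.16 and 11.47 on SSC JUN arrays against 10.21 and 11.02 on SSC -JUN arrays, and 7.67 and 7.96 on CSP JUN arrays against 7.64 and 6.14 on CSP -JUN arrays. On Thy JUN arrays it read 10.22 and 10.81, against 11.69 and 9.71 on Thy -JUN arrays. CSP arrays again lay below all others, and Thy -JUN was the most spread group with 10.70 ± 1.4 (SD, n = 2). SSC JUN (11.81) led the order, followed by Thy -JUN (10.70), SSC -JUN (10.61), Thy JUN (10.51), CSP JUN (7.82) and CSP -JUN (6.89). The first 3 pairs of neighbours overlapped and the last 2 did not. Over 4 arrays its mean was 11.21 ± 0.82 in SSC, 7.35 ± 0.82 in CSP and 10.61 ± 0.85 in Thy (SD).

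Ednrb is the endothelin B receptor, a G protein-coupled receptor known in neural crest cells, their melanocyte and enteric derivatives and Schwann precursors. It read 11.58 and 12.33 on SSC JUN arrays against 12.03 and 13.20 on SSC -JUN arrays, and 8.35 and 7.16 on CSP JUN arrays against 9.11 and 8.15 on CSP -JUN arrays. On Thy JUN arrays it read 10.34 and 11.68, against 13.08 and 12.15 on Thy -JUN arrays. On this probe set its mean was lower in the JUN arm of each population, with the arms apart in Thy and overlapping in SSC and CSP. The order was Thy -JUN (12.62), SSC -JUN (12.61), SSC JUN (11.96), Thy JUN (11.01), CSP -JUN (8.63) and CSP JUN (7.76). All neighbours overlapped except Thy JUN and CSP -JUN. Over 4 arrays the mean was 12.28 ± 0.68 in SSC, 8.19 ± 0.80 in CSP and 11.81 ± 1.14 in Thy (SD).

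Erbb3 binds neuregulin and signals together with Erbb2, since its own kinase has little activity. It read 12.34 and 11.18 on SSC JUN arrays against 10.72 and 11.58 on SSC -JUN arrays, and 8.65 and 8.62 on CSP JUN arrays against 8.61 and 8.30 on CSP -JUN arrays. On Thy JUN arrays it read 10.72 and 10.90, against 12.22 and 11.62 on Thy -JUN arrays. Its CSP level was the tightest of any gene and population here, 8.54 ± 0.17, beside 11.46 ± 0.69 in SSC and 11.37 ± 0.69 in Thy (SD, n = 4 each). Thy -JUN (11.92) came first, then SSC JUN (11.76), SSC -JUN (11.15), Thy JUN (10.81), CSP JUN (8.64) and CSP -JUN (8.45). The first 3 pairs of neighbours overlapped and the last 2 did not.

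Ngfr is the neurotrophin receptor p75, abundant on immature and repair Schwann cells and switched off in myelinating ones. It read 12.62 and 12.48 on SSC JUN arrays against 11.24 and 11.05 on SSC -JUN arrays, and 10.62 and 12.36 on CSP JUN arrays against 11.55 and 10.88 on CSP -JUN arrays. On Thy JUN arrays it read 12.45 and 12.15, against 12.19 and 11.94 on Thy -JUN arrays. Ngfr was the 1 gene of the 6 whose CSP and SSC arrays overlapped. SSC JUN (12.55) stood at the top of its order and SSC -JUN (11.14) at the bottom, with Thy JUN (12.30), Thy -JUN (12.06), CSP JUN (11.49) and CSP -JUN (11.22) between them. SSC JUN did not overlap its neighbour Thy JUN, while every other pair of neighbours overlapped. Over 4 arrays the mean was 11.85 ± 0.82 in SSC, 11.35 ± 0.78 in CSP and 12.18 ± 0.21 in Thy (SD).

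**Figure D1:**
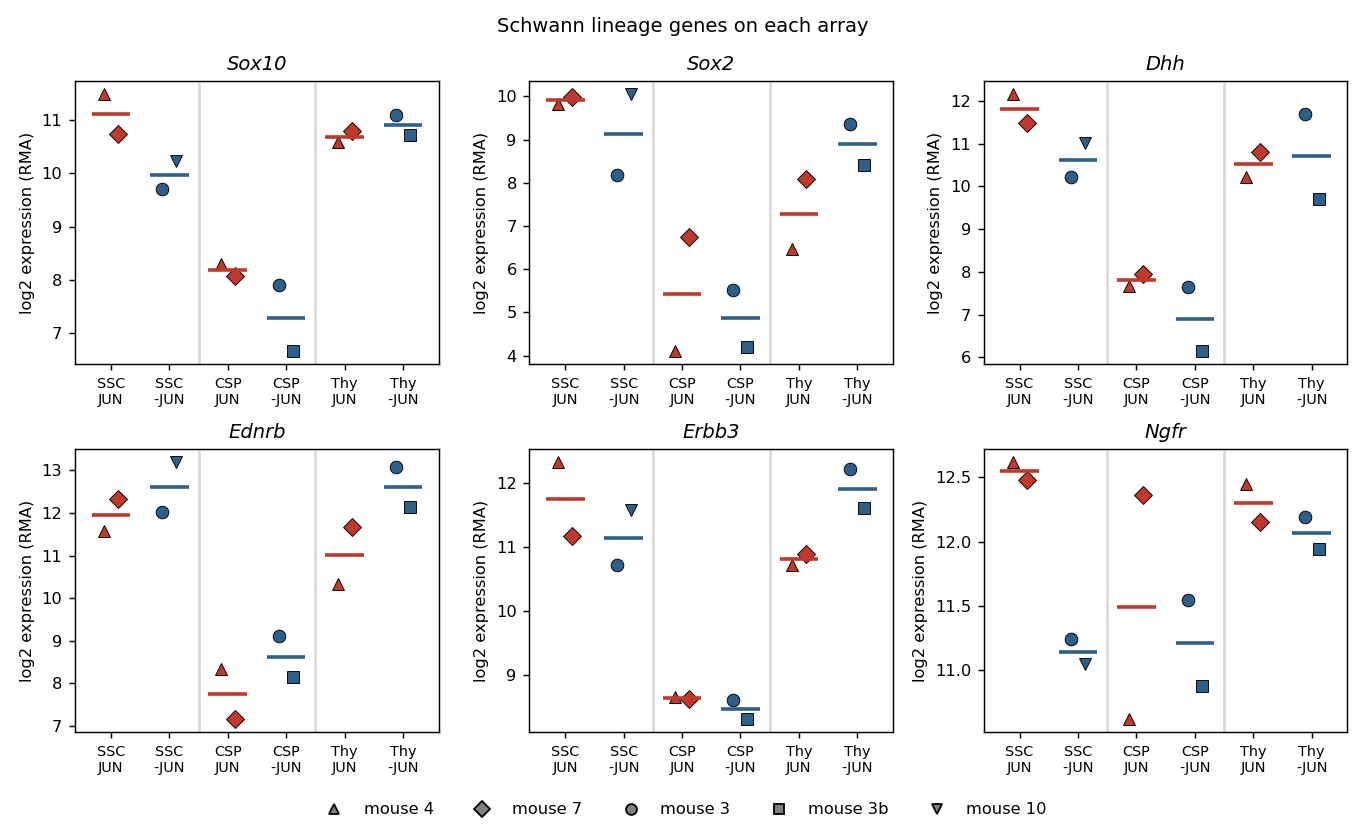
Log2 expression (vertical axis, RMA scale) of each of the 6 genes on every array, by population and JUN arm, with marker shapes for mice and bars for the mean of the 2 arrays. CSP arrays sit lowest for Sox10, Dhh, Ednrb and Erbb3, as in Sox10 at 6.66 to 8.30, while Ngfr on CSP arrays, 10.62 to 12.36, overlaps both other populations.

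A group of 5 of the genes was many times higher on SSC than on CSP arrays. The SSC minus CSP difference was 4.38 ± 0.70 for Sox2, 4.09 ± 0.43 for Ednrb (17-fold) and 3.86 ± 0.48 for Dhh, each with the SE of the fit. No fold is given for Sox2 and Dhh, because all 4 CSP arrays of Sox2 and 3 of 4 of Dhh lie below the array median. Sox2 passed the filter through SSC and Thy arrays alone. The SSC minus CSP difference was 2.91 ± 0.38 for Erbb3 (7.53-fold), 2.80 ± 0.35 for Sox10 (6.98-fold) and 0.49 ± 0.37 for Ngfr (1.41-fold). On the probe set read for each gene, SSC arrays lay wholly above CSP arrays for Sox10, Sox2, Dhh, Ednrb and Erbb3, which is 5 of 6, a separation that 2.20% of all genes tested showed. Those 5 were also among the 54 genes that limma called in this contrast, 0.431% of all genes tested, 48 of them higher and 6 lower in SSC. Because this contrast was known when the genes were chosen, nothing is read from these counts. On a bulk array, fewer cells of a type and less RNA per cell cannot be told apart.

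With the mouse as a replicate block, 8 genes were called between SSC and CSP in place of 54, and 2 of the 6 (Dhh and Ednrb) in place of 5. The differences themselves moved little under the block, to 4.10 for Sox2, 3.83 for Ednrb, 3.58 for Dhh, 2.87 for Erbb3 and 2.71 for Sox10. Without mouse 7 only Ednrb of the 6 was called (7 genes in all), and without the 3 SSC arrays whose titles carry a date only Erbb3 (17 genes in all). The second of these settings keeps 1 SSC array (JUN, mouse 4), which the fit assumes to vary like the other arrays. In those settings the differences of the 5 genes stayed between 2.85 and 4.96.

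The CSP minus Thy differences show the other side of the low CSP level, and both contrasts use the same 4 CSP arrays. They were -3.62 ± 0.43 for Ednrb (12.3-fold lower in CSP), -3.25 ± 0.48 for Dhh and -3.06 ± 0.35 for Sox10 (8.33-fold). For Sox2 the difference was -2.94 ± 0.70, with CSP again below the array median, for Erbb3 -2.82 ± 0.38 (7.08-fold) and for Ngfr -0.83 ± 0.37 (1.78-fold). On the probe set read for each gene, CSP arrays lay wholly below Thy arrays for Sox10, Dhh, Ednrb and Erbb3, against 4.29% of all genes tested. The same 4 genes were among the 124 called, 0.991% of all genes tested, of which 113 were lower and 11 higher in CSP; the contrast was known at the choice of genes and nothing is read from the count. The count of calls fell to 45 with the poly-A control level as a covariate, to 17 without mouse 3 and to 30 without mouse 3b, and the 4 genes numbered 4, 4 and 3 among them.

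Differences between SSC and Thy arrays were mixed in sign. SSC minus Thy was 1.44 ± 0.70 for Sox2, 0.61 ± 0.48 for Dhh, 0.47 ± 0.43 for Ednrb and 0.09 ± 0.38 for Erbb3. It was -0.25 ± 0.35 for Sox10 and -0.34 ± 0.37 for Ngfr. Sox2 thus stood apart with SSC at 9.52 against 8.08 in Thy, although the lowest SSC array (8.19) lay below 2 of the 4 Thy arrays. SSC lay wholly above Thy for 0 of the 6 genes, beside 2.41% of all genes tested. None of the 6 was among the 49 genes called by limma, 0.391% of all genes tested (9 higher and 40 lower in SSC, and 2210 at an unadjusted p under 0.05), and with the mouse as a block 4 genes were called. With the poly-A control level as a covariate SSC minus Thy was 2.59 for Sox2, 1.48 for Dhh, 1.45 for Erbb3, 0.42 for Sox10, 0.36 for Ngfr and 0.20 for Ednrb, so that Sox10 and Ngfr turned sign, and 0 genes were called (775 at an unadjusted p under 0.05). A difference that misses the threshold does not show equal levels.

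Within a mouse, the SSC minus Thy difference turned with the animal. In mouse 3, of the -JUN arm, it was negative for all 6 genes, between -1.51 (Erbb3) and -0.95 (Ngfr). In mouse 4, of the JUN arm, it was positive for all 6, between 0.17 (Ngfr) and 3.37 (Sox2), and in mouse 7, also JUN, it ran from -0.05 (Sox10) to 1.91 (Sox2). Mouse 3 is the only -JUN mouse in this comparison and the only one with high Xist, so animal, arm and Xist level cannot be told apart. The SSC arrays of mice 3 and 7 have dated titles and the CSP and Thy arrays of those numbers do not, and the labels do not say that the number marks 1 animal throughout.

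The other within-mouse differences kept one sign for the 5 genes other than Ngfr. SSC minus CSP ran from 1.80 (Sox10, mouse 3) to 5.73 (Sox2, mouse 4) in mice 3, 4 and 7. CSP minus Thy ran from -4.52 (Ednrb, mouse 7) to -1.35 (Sox2, mouse 7) in mice 3, 3b, 4 and 7. Ngfr did not hold one sign: its SSC minus CSP difference was -0.31 in mouse 3, 1.99 in mouse 4 and 0.12 in mouse 7, and its CSP minus Thy difference was -0.64, -1.06, -1.83 and 0.21 in mice 3, 3b, 4 and 7.

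**Figure D2:**
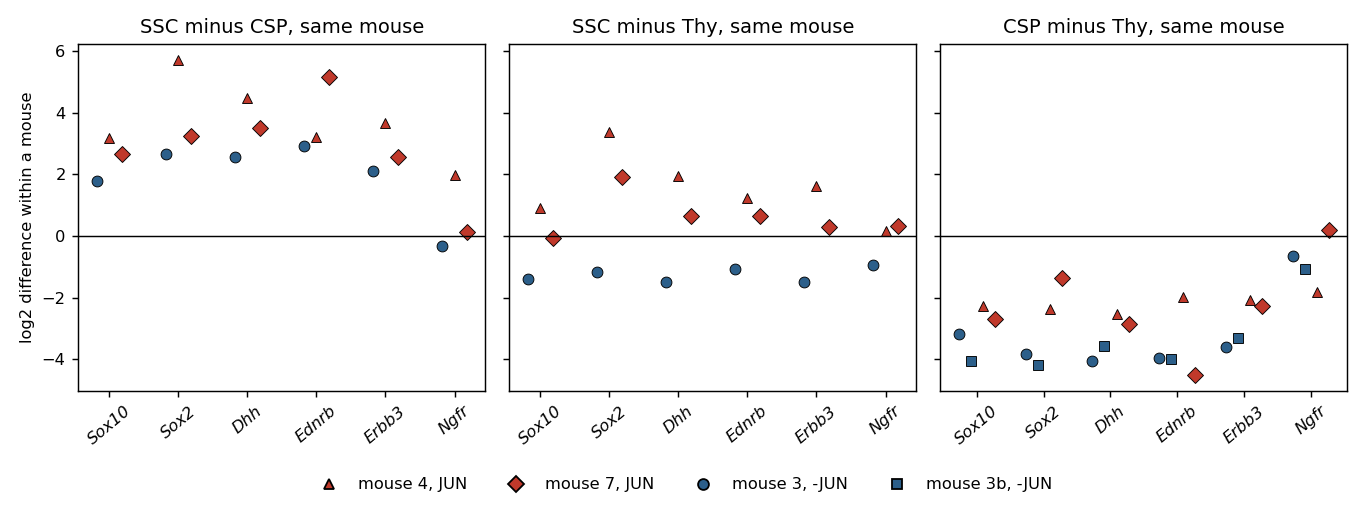
Log2 difference between 2 populations of the same mouse (vertical axis) for each of the 6 genes, with 1 panel for each pair of populations, shapes for mice and colours for JUN arms. Mouse 3 lies below 0 and mouse 4 above 0 for all 6 genes in the SSC minus Thy panel, while 5 genes lie above 0 in SSC minus CSP and below 0 in CSP minus Thy in every mouse.

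JUN minus -JUN differences of these genes lay between -1.61 and 1.41 on the log2 scale, and the sign varied with gene and population. In SSC, JUN minus -JUN was 1.41 ± 0.49 for Ngfr, 1.20 ± 0.66 for Dhh, 1.14 ± 0.44 for Sox10, 0.79 ± 0.91 for Sox2, 0.61 ± 0.43 for Erbb3 and -0.66 ± 0.63 for Ednrb. The JUN arrays lay wholly above the -JUN arrays in SSC for Sox10, Dhh and Ngfr, 3 of 6, and this was so for 22.7% of all genes tested. None of the 6 was among the genes called, which numbered 0 of 12516 (0%, with 813 at an unadjusted p under 0.05). The median of the 6 differences was 0.97, beside 0.08 over all genes tested.

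In CSP, JUN minus -JUN was 0.93 ± 0.66 for Dhh, 0.91 ± 0.44 for Sox10, 0.56 ± 0.91 for Sox2, 0.28 ± 0.49 for Ngfr, 0.19 ± 0.43 for Erbb3 and -0.87 ± 0.63 for Ednrb. JUN lay wholly above -JUN for Sox10, Dhh and Erbb3, though for Dhh and Erbb3 the nearest arrays of the arms were 7.67 against 7.64 and 8.62 against 8.61. Of all genes tested, 19.3% showed this separation, and limma called 0 of them (0%, with 288 at an unadjusted p under 0.05). On the other probe set of Erbb3 the arms overlapped, with 7.51 and 7.83 in JUN and 7.48 and 7.87 in -JUN. They also overlapped on that of Dhh, with 8.01 and 8.48 in JUN and 7.70 and 8.12 in -JUN. The median was 0.42 for the 6 genes and 0.07 over all genes tested.

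Thy differed in sign for most of the genes. JUN minus -JUN was -1.61 ± 0.91 for Sox2, -1.61 ± 0.63 for Ednrb, -1.11 ± 0.43 for Erbb3, -0.22 ± 0.44 for Sox10, -0.18 ± 0.66 for Dhh and 0.23 ± 0.49 for Ngfr. JUN arrays lay wholly below -JUN arrays for Sox2, Ednrb and Erbb3, beside 10.8% of all genes tested, and 0 genes were called (0%, with 380 at an unadjusted p under 0.05). The median of the 6 was -0.66, against 0.04 over all genes tested. The test of whether the JUN difference varied with population called 0 of 12516 genes (0%, with 144 at an unadjusted p under 0.05), so for none of the 6 did the populations differ past the threshold in their JUN difference.

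These JUN differences rest on 2 arrays against 2. Leaving out 1 array moved the Sox2 difference in SSC between -0.14 and 1.72, in CSP between -0.76 and 1.88 and in Thy between -2.43 and -0.80. The Ngfr difference in SSC kept to 1.31 to 1.5 under the same omissions, and that of Sox10 in SSC to 0.77 to 1.52. Dhh in Thy turned sign, with -1.17 without one -JUN array and 0.81 without the other. Leaving out mouse 7 raised the number of genes called to 282 in SSC and 175 in Thy, with 0 of the 6 among them; each JUN group then holds 1 array (mouse 4), and its spread is taken from the other groups.

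**Figure D3:**
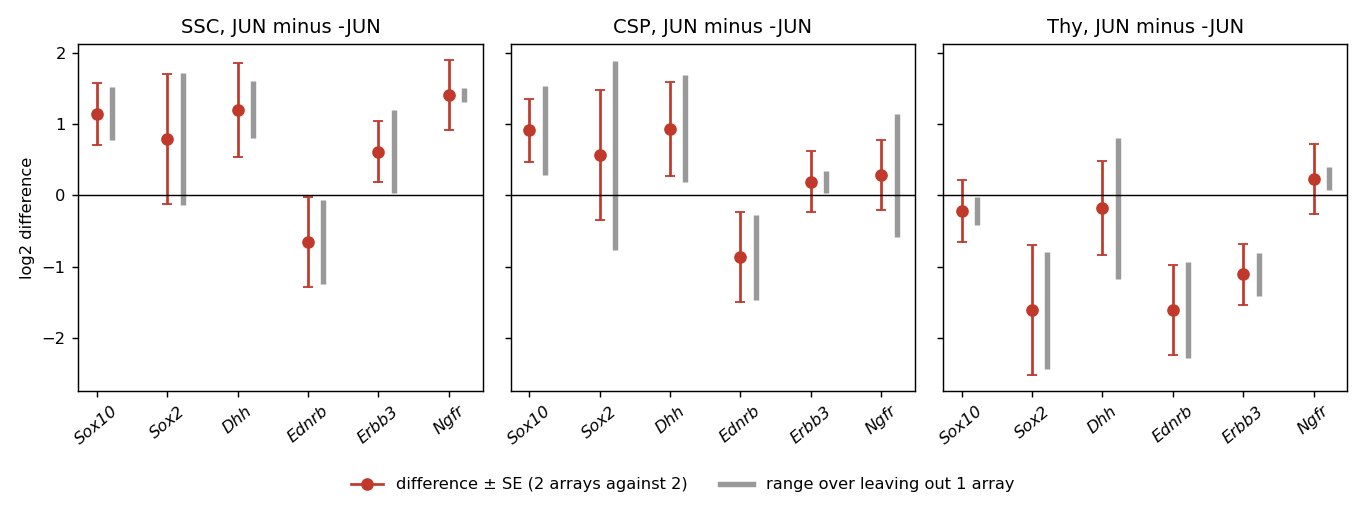
JUN minus -JUN log2 difference (vertical axis) of each of the 6 genes in SSC, CSP and Thy, as points with the SE of the fit (2 arrays against 2), and grey bars for the range over leaving out 1 array. Ngfr in SSC (1.41) has a narrow range above 0, and Sox2 spans 0 in SSC and CSP and lies below 0 in Thy.

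Separate probe sets of a gene can be compared for direction but not for level. The 3 probe sets of Sox10 gave SSC minus CSP differences of 2.80, 2.00 and 1.35, and those of Ednrb gave 4.09, 3.29 and 3.00. The pair for Erbb3 gave 2.91 and 2.95. Dhh disagreed in size and in separation. Its dimmer probe set, which correlated with the used one at r = 0.69 over 12 arrays, gave 0.53 where the used one gave 3.86. That dimmer probe set read 7.97 to 9.41 on SSC, 7.70 to 8.48 on CSP and 8.15 to 8.78 on Thy arrays, so CSP overlapped both others. On the third Sox10 probe set the lowest SSC array (7.79) lay below CSP arrays at 7.90 and 8.01.

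Probe sets were closer to each other for JUN in SSC in some genes than in others. Sox10 gave 1.14, 1.08 and 1.74, Ngfr 1.41, 1.09 and 0.72, and Dhh 1.20 and 1.01. Erbb3 gave 0.61 and 1.23. Ednrb gave -0.66, 0.03 and -0.08, so that the size of its lower JUN mean in SSC rests on the used probe set. In CSP the 3 gave -0.87, -0.44 and 0.56, so the third had the opposite sign. Ngfr in CSP gave 0.28, -0.11 and -0.35 and Erbb3 0.19 and -0.01, so their positive JUN values there rest on the used probe set. Sox10 in CSP gave 0.91, 0.64 and 0.80 and Dhh 0.93 and 0.34, each with one sign. In Thy all 3 Ednrb probe sets were lower in JUN, with differences of -1.61, -1.21 and -0.79, as were both of Erbb3, with -1.11 and -0.65.

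**Figure D4:**
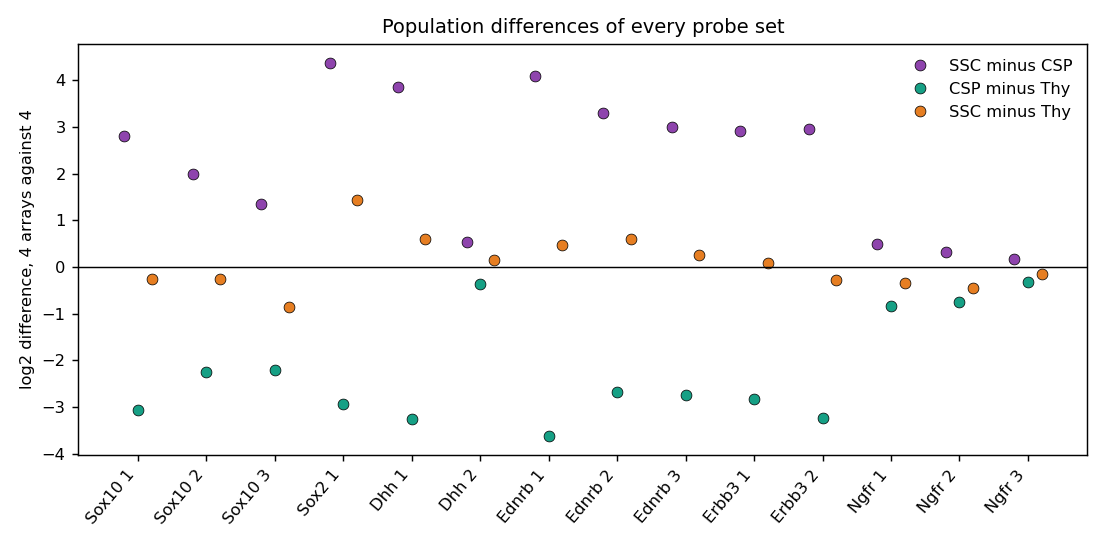
Log2 differences between populations (vertical axis, 4 arrays against 4) for each of the 14 probe sets of the 6 genes, 1 colour for each pair of populations. SSC minus CSP points lie above 0 and CSP minus Thy points below 0 throughout, and the second Dhh probe set (0.53 and -0.37) lies much nearer 0 than the first.

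A group of 5 of the genes moved together across the arrays, and Ngfr less so. Pearson's r over all 12 arrays lay between 0.84 (Sox10 with Sox2) and 0.96 (Sox10 with Dhh) among Sox10, Sox2, Dhh, Ednrb and Erbb3. The low CSP arrays carry much of this, since over the 8 SSC and Thy arrays r ran from -0.09 (Sox10 with Ednrb) to 0.77 (Sox2 with Ednrb). Ngfr reached r of 0.25 (Ednrb) to 0.62 (Sox10) over 12 arrays, and over the 8 arrays 0.80 with Sox10 and -0.50 with Ednrb. These values describe arrays that share animals and are given without a test.

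The genes whose pattern was most like the mean of the 6 were ranked by r over 12 arrays among all other genes tested. Plxnb3, a plexin receptor for semaphorins, came first (r = 0.979), then Sostdc1, a secreted inhibitor of BMP and Wnt signals (0.976), Kcna1, a potassium channel subunit (0.966), and Cadm4, an adhesion molecule of Schwann cells facing the axon (0.963). Zfp536 (0.948), Reln, the matrix protein reelin (0.947), Cnp, a myelin enzyme (0.944), Scamp5 (0.939), Aatk (0.939) and Sbspon (0.937) completed the first 10. Plxnb3 read 8.91 to 10.19 on SSC arrays, 6.34 to 7.27 on CSP arrays and 9.15 to 10.63 on Thy arrays. Over the 8 SSC and Thy arrays Cadm4 and Zfp536 kept r at 0.921 each, while Aatk had 0.616.

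Nearest genes differed between members. Plxnb3 was nearest to Sox10 (0.970) and to Dhh (0.973), Reln to Erbb3 (0.974), Gjc3, a glial gap junction gene, to Ednrb (0.977) and Gatm to Sox2 (0.955). Ngfr had its own set, led by Gpat4 (0.919), Ttyh2 (0.907) and Cdc42ep1 (0.900). Among these, Gpat4 and Cdc42ep1 had CSP levels that overlapped SSC and Thy levels, while Ttyh2 was lower on CSP arrays (11.05 to 12.39) than on Thy arrays (12.57 to 12.96) and overlapped SSC arrays (11.56 to 12.48). Gpat4 had 9.76 to 10.70 on SSC arrays, 9.62 to 10.67 on CSP arrays and 10.35 to 10.67 on Thy arrays.

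Partners of the 6 genes in their pathways showed no called difference in any of the 6 comparisons in the fit as described. Of 9 genes of neuregulin signalling 6 were tested, of 6 endothelin genes 3, of 12 hedgehog genes 11 and of 8 neurotrophin genes 4, and limma called 0 in each list. Unadjusted p lay under 0.05 in 4 of 36, 2 of 18, 3 of 66 and 0 of 24 gene tests of these lists. Over all 12516 genes tested, it lay under 0.05 for 288 (JUN in CSP) to 2210 (SSC against Thy) in a comparison. Ece1, of the endothelin list, was called in SSC against Thy without SSC JUN replicate 1. The SSC minus CSP medians of these lists were -0.18, -0.03, -0.16 and 0.07, beside -0.05 over all genes tested. Erbb2, the partner of Erbb3, read 8.16 to 9.99 on SSC arrays, 8.81 to 9.57 on CSP arrays and 9.54 to 9.86 on Thy arrays. Ptch1, the hedgehog receptor that binds Dhh, read 10.82 to 12.21 on SSC arrays, 9.91 to 11.81 on CSP arrays and 9.22 to 11.73 on Thy arrays. Levels of both partners overlapped among the 3 populations. On the probe sets read for them, Dhh and Erbb3 on CSP arrays overlapped neither other population.

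Other transcription factors of the lineage did not pass the threshold in the fit as described, with 10 of 13 tested and 0 called by limma in all 6 comparisons (9 of 60 gene tests at an unadjusted p under 0.05). Foxd3, a neural crest factor, read 7.27 to 8.41 on SSC arrays, 6.85 to 7.22 on CSP arrays and 7.61 to 8.70 on Thy arrays, with a CSP minus Thy difference of -1.12 ± 0.28 (limma, adjusted p = 0.101). Pou3f1, a factor of the promyelinating stage, had a CSP minus Thy difference of -1.07 ± 0.27 (limma, adjusted p = 0.108) and Zeb2, which myelination requires, one of -0.94 ± 0.25 (adjusted p = 0.131). These 3 had the lowest p of the list, in which 6 genes had a lower and 4 a higher value in CSP than in Thy (Id2 0.57, Yy1 0.41, Nab1 0.40 and Nab2 0.07), with a median of -0.09 beside -0.04 over all genes tested. With the mean of a gene's probe sets Pou3f1 was called in both contrasts with CSP, and it was called in CSP against Thy without Thy JUN replicate 2. Of 6 other SoxB and SoxE genes 3 were tested and 0 called (3 of 18 gene tests at an unadjusted p under 0.05). Their CSP minus Thy differences were -0.86 ± 0.22 for Sox3 (limma, adjusted p = 0.11), -0.28 ± 0.25 for Sox21 and 1.01 ± 0.6 for Sox9. The median was -0.28, beside -0.04 over all genes tested.

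Of 15 listed myelin genes, made by differentiated Schwann cells, 9 were tested, and 5 rose in SSC over CSP while the same 5 fell in CSP below Thy, with 0 called the other way (0.431% and 0.991% of all genes tested were called in these contrasts). Drp2, Pmp22, Cldn19 and Ncmap were not called, with SSC minus CSP values of 0.15, 0.33, 1.68 and 0.63 and CSP minus Thy values of -0.01, -0.13, -0.22 and 0.95. The list was chosen with results of these arrays known and is no independent evidence of direction. Mbp, myelin basic protein, read 11.81 and 12.43 on SSC JUN and 12.48 and 13.01 on SSC -JUN arrays, against 7.29 and 8.41 on CSP JUN and 7.95 and 8.20 on CSP -JUN arrays. Its SSC minus CSP difference was 4.47 ± 0.52 (limma, adjusted p = 0.00339). Gjc3 had 4.2 ± 0.42 (limma, adjusted p = 0.00228), Mal, a myelin membrane proteolipid, 3.93 ± 0.43 (adjusted p = 0.00297) and Mag, the adhesion protein of the inner myelin wrap, 3.58 ± 0.51 (adjusted p = 0.00995). Cnp had 2.41 ± 0.33 (limma, adjusted p = 0.00825). Mag passed the filter through SSC and Thy arrays alone, as it read 5.55 to 6.49 on CSP arrays, where the array medians were 7.66 to 7.73. Gjc3 read 7.07 and 6.56 on CSP JUN and 7.60 and 7.90 on CSP -JUN arrays, and only the reading of 7.90 lay above its array median (7.70). It too needed SSC or Thy arrays to pass the filter. Nothing is therefore read from the adjusted p of Mag or of Gjc3 in the contrasts with CSP.

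On Thy arrays Mbp read 9.05 and 10.81 in JUN against 12.76 and 10.75 in -JUN, and CSP minus Thy was -2.88 ± 0.52 (limma, adjusted p = 0.0217). Gjc3 differed by -3.30 ± 0.42 (limma, adjusted p = 0.00531), Mal by -2.91 ± 0.43 (adjusted p = 0.00816), Mag by -2.58 ± 0.51 (adjusted p = 0.0365) and Cnp by -2.11 ± 0.33 (adjusted p = 0.0105). In SSC against Thy all 9 had a higher value in SSC, median 1 against -0.09 over all genes tested, and 0 were called. Without the 3 SSC arrays with dated titles, which leaves 1 SSC array, 1 of the 5 myelin calls between SSC and CSP remained (Gjc3), and with the mouse as a block 3 (Gjc3, Mal and Mbp). With the poly-A control level as a covariate, and without mouse 3 or mouse 3b, 1 of the 5 calls between CSP and Thy was left (Gjc3). Since Gjc3 needed SSC or Thy arrays to pass the filter, nothing is read from its call staying in these settings.

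Genes of immature and non-myelinating Schwann cells gave 1 call among 9 tested. Gap43, a growth-associated protein of axons and repair cells, read 10 and 11.26 on CSP JUN and 10.65 and 10.10 on CSP -JUN arrays, against 11.91 and 12.37 on Thy JUN and 12.49 and 11.89 on Thy -JUN arrays. Its CSP minus Thy difference was -1.66 ± 0.30 (limma, adjusted p = 0.0216), and the call was lost with the poly-A covariate and without mouse 3 or mouse 3b. It was also the 1 call among 7 tested repair genes of 8 listed. Fabp7, a lipid-binding protein of immature glia, had an SSC minus CSP difference of 2.93 ± 0.73 (limma, adjusted p = 0.181). In SSC against CSP 7 of the 9 immature genes were higher and 2 lower in SSC (median 0.52). In CSP against Thy 2 were higher and 7 lower in CSP (median -0.72). S100b, of the same list, read 9.39 to 10.16 on SSC, 8.17 to 10.77 on CSP and 7.17 to 10.05 on Thy arrays. Gfap and Olig1, both listed for immature or repair cells, had the lowest p of their lists for JUN in SSC and did not pass the threshold. Of the 9 immature genes 6 had a higher and 3 a lower value in JUN (Scn7a -1.85, Cdh19 -0.87 and Gfra3 -0.38), with a median of 0.12 beside 0.08 over all genes tested. Of the 7 repair genes 6 were higher and 1 lower (Bdnf -0.80), with a median of 0.37. Gfap read 8.83 and 8.44 on SSC JUN against 7.13 and 6.88 on SSC -JUN arrays, a difference of 1.63 ± 0.38 (limma, adjusted p = 0.69). Olig1 read 11.25 and 8.65 on SSC JUN against 7.04 and 7.31 on SSC -JUN arrays, a difference of 2.78 ± 0.71 (limma, adjusted p = 0.69).

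Markers of other cells that express some of the 6 genes were read beside them. Of 8 melanocyte markers 4 were tested and 0 called, and their mean was 7.47 to 8.57 on SSC arrays, 7.43 to 7.67 on CSP arrays and 7.23 to 7.91 on Thy arrays. Tyr and Mlana, pigment cell genes named here because they did not pass the filter, stood at 4.93 to 5.24 and 5.33 to 5.53 on SSC arrays. Tyrp1, of lowest p in the melanocyte list, read 5.94 to 9.14 on SSC, 6.04 to 6.36 on CSP and 6.17 to 7.14 on Thy arrays. Its highest value was on SSC -JUN mouse 10, the array also highest in Ednrb (13.20). In SSC against CSP 3 of the melanocyte genes tested were higher and 1 lower in SSC (median 0.24). Of 8 neuron markers 5 were tested and 0 called, with means of 7.41 to 8.38 on SSC arrays, 7.26 to 7.86 on CSP arrays and 7.78 to 8.97 on Thy arrays. Unadjusted p lay under 0.05 in 5 of 30 gene tests of the neuron list. Its CSP minus Thy median was -1.13 (1 higher and 4 lower) and its SSC minus CSP median -0.02 (2 higher and 3 lower). Tubb3, of lowest p in that list, read 7.10 to 9.25 on SSC, 6.64 to 7.19 on CSP and 7.79 to 8.98 on Thy arrays. Perineurial, keratinocyte, leukocyte and osteoblast markers gave 0 calls among 3, 3, 3 and 4 tested in the fit as described. Unadjusted p lay under 0.05 in 3 of 18, 0 of 18, 5 of 18 and 2 of 24 gene tests of these lists. Cldn1, of the perineurial list, was called in SSC against CSP without mouse 4 and without SSC JUN replicate 1. Ibsp, of the osteoblast list, was called in SSC against Thy without CSP JUN replicate 2. No RMA value is 0, so none of these markers is absent by value, and their part in the differences was not tested.

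Myelin and cartilage lists also moved with the arrays. The mean of the 9 myelin genes was 10.78 to 11.31 on SSC arrays, 8.27 to 8.94 on CSP arrays and 9.46 to 11.17 on Thy arrays, the Thy maximum being mouse 3, where the mean of the 6 genes was also the highest in Thy (11.61). The mean of 7 chondrocyte markers was 10.27 to 13.52 on SSC arrays, 10.29 to 13.78 on CSP arrays and 8.65 to 10.09 on Thy arrays, with 0 called. With the mouse as a replicate block 4 of the 7 (Col2a1, Col9a1, Hapln1 and Matn3) were called in CSP against Thy. In SSC its highest array was JUN mouse 4, at 13.52 against 10.27 to 11.33 on the others, which was also the array highest in Sox10, Dhh, Erbb3 and Ngfr. The mean of 7 endothelial markers was 7.40 to 7.99 on SSC arrays, 8.31 to 9.18 on CSP arrays and 8.11 to 8.88 on Thy arrays, and 1 of them, Esam, was called, lower in SSC and in CSP than in Thy. Esam did not follow its list in CSP against Thy, where 5 of the 7 were higher and 2 lower in CSP (median 0.33). In SSC against CSP 1 was higher and 6 were lower in SSC (median -1.16). There Pecam1 was called with the poly-A covariate and without Thy JUN replicate 2, and Cldn5 without mouse 4. In SSC against Thy the split was also 1 and 6 (median -0.71). The part of these cells and of the poly-A control level in the results on the 6 genes was not tested.

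**Figure D5:**
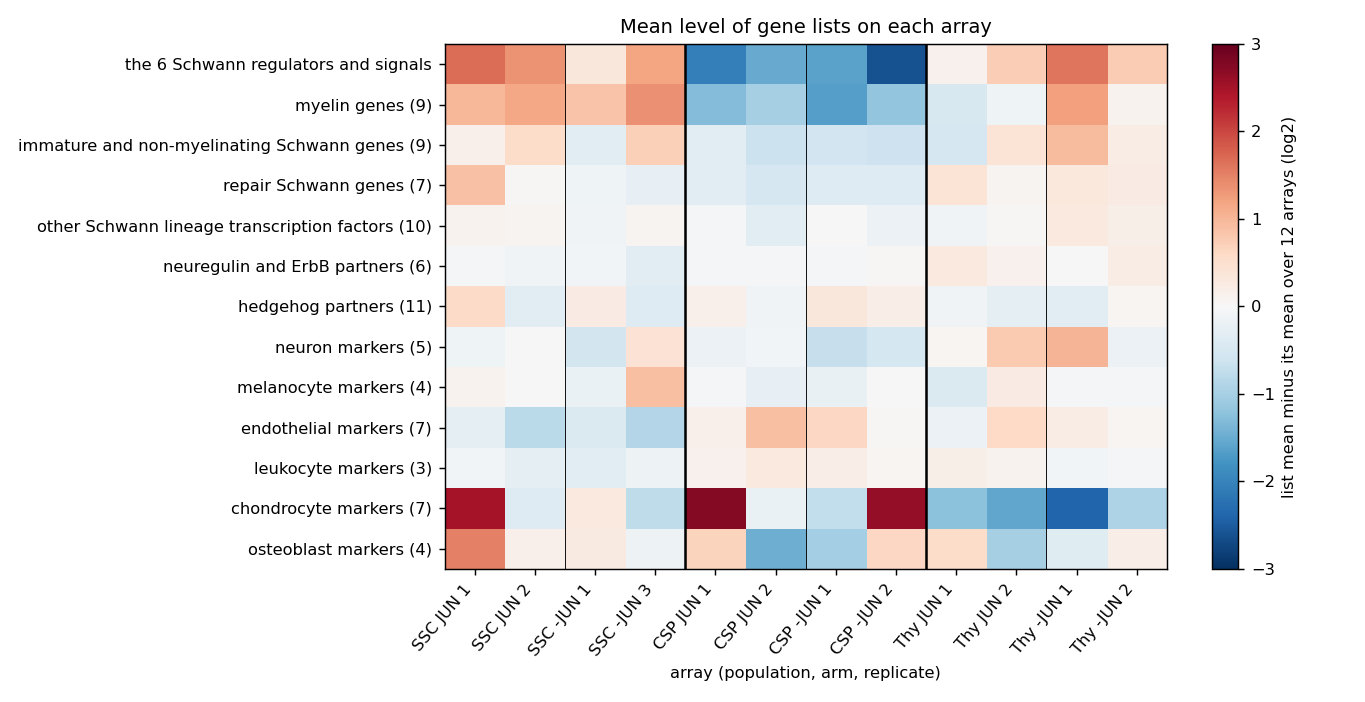
Mean log2 level of each gene list on each array (columns: population, arm and replicate), shown as the difference from the mean of that list over the 12 arrays, with the number of genes in parentheses. The 6 Schwann genes and the myelin genes are low on the 4 CSP arrays, and the chondrocyte row is low on Thy arrays and uneven among SSC and CSP arrays.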

How the data were processed

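Expression was measured on 12 arrays, 1 a sample, in 6 groups of 2. Per the submitters' processing notes, the authors used RMA to make the log2 values of each probe set; software and settings are unknown here. RMA sets all arrays to 1 distribution, which hides changes of total RNA, and precision rests on the number of arrays. Arrays correlated with each other at r of 0.872 to 0.979.

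Of 45101 probe sets 64 controls were left out. The platform annotation gave 34945 of the remaining 45037 1 symbol, 932 several and 9160 none, and updating by Entrez ID changed 0 symbols. The filter (brighter than the array median on 2 or more arrays) kept 26560 probe sets, and 1 probe set a gene (highest mean) left 12516 genes. limma 3.58.1 in R 4.3.3 (lmFit, eBayes, two-sided) fitted 6 group means for JUN (6 residual degrees of freedom) and population plus JUN arm for populations (8), with Benjamini-Hochberg adjustment and a threshold of 0.05. Motifs were searched in RefSeq promoters of GRCm38.p6. The fit was tested on simulated data.

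The 6 genes, the gene lists and the tests were chosen with earlier results of these data known. Genes named by rule are the 6, Jun, and listed genes that were called or among the 3 with the lowest p of their list. The genes most correlated with the 6 are also named by rule, from the first 10 for their mean and the first 3 for each. Not every gene under the rule is named, such as Eng, called lower in SSC than in CSP and in Thy. Xist, Tyr, Mlana and some uncalled genes of a list, shown beside the genes quoted from it, are named outside the rule.

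Titles give arrays of different populations the same mouse name, which pairs the populations; the correlation of deviations from group means in such pairs was -0.21 to 0.43. JUN and -JUN arrays share only replicate numbers. Alternatives were other filters, probe set rules and normalizations, limma's trend, covariates for mouse 3 and for poly-A controls, the replicate block, and leaving out arrays or mice. The poly-A covariate and the fit without 3 SSC arrays with dated titles were added after seeing the data.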

Additional observations from a re-analysis of the deposited data

Results flagged for a closer look

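In each population the 6 genes were checked for an array standing apart from the other 3, which made 18 checks, and chance flags about 1 in 20. Sox2 in SSC was flagged because SSC -JUN replicate 1 (mouse 3) read 8.19 while the others lay between 9.83 and 10.06, a gap of 0.881 of the whole range, above Dixon's critical value for 4 arrays. Erbb3 in CSP was flagged because CSP -JUN replicate 2 (mouse 3b) read 8.30 while the others lay between 8.61 and 8.65, a gap of 0.868 of the range; its whole range in CSP is small.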

How the results depend on the processing

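For the 5 genes other than Ngfr, 260 of 260 alternative values of SSC minus CSP and CSP minus Thy kept their sign. SSC lay wholly above CSP for these 5 genes and CSP wholly below Thy for 4 of them, so leaving out arrays could hardly turn a sign. The genes were also chosen with these contrasts known, and nothing is read from this count. Over all population differences of the 6 genes 457 of 468 values kept their sign and 11 turned (Ngfr, and Sox10 and Erbb3 in SSC against Thy). Over the JUN differences 430 of 450 kept it and 20 turned. Those that turned were Sox2 in SSC (-0.14 to 1.72) and CSP (-0.76 to 1.88), Ednrb in SSC (-1.24 to 0.30), Dhh in Thy (-1.17 to 0.81), Ngfr in CSP (-0.59 to 1.14) and Erbb3 in SSC (-0.13 to 1.24) and CSP (-0.32 to 0.34). Counts of calls varied with the setting, and where they moved the cause was not tested.

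With the replicate block SSC against CSP had 8 calls (2 of the 6 genes), SSC against Thy 4 and CSP against Thy 125, and each JUN comparison stayed at 0 (145, 177 and 282 genes at an unadjusted p under 0.05 in SSC, CSP and Thy). JUN and -JUN arrays of one number are different mice, and their deviations from the group means correlated at 0.51 (SSC), -0.10 (CSP) and -0.18 (Thy). Deviations in groups of 2 mirror each other, so these values cannot show an effect of the replicate number. Without the 3 SSC arrays with dated titles, which keeps 1 SSC array, SSC against CSP had 17 calls (1 of the 6 genes) and SSC against Thy 1. SSC against Thy had 25 calls with a covariate for mouse 3, 0 with the poly-A covariate (775 at an unadjusted p under 0.05), 74 with each array centred on its median, 75 with the mean of a gene's probe sets and 24 without the filter. CSP against Thy had 45 with the poly-A covariate.

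Leaving out 1 array or 1 mouse, calls ran from 7 (mouse 7) to 62 for SSC against CSP, from 3 (mouse 3) to 304 (SSC JUN replicate 1) for SSC against Thy and from 17 (mouse 3) to 155 for CSP against Thy. They ran from 0 to 282 for JUN in SSC, 0 to 2 for JUN in CSP and 0 to 175 for JUN in Thy, the highest without mouse 7, mouse 4 and mouse 7, when a JUN group holds 1 array. Of the 6 genes 1 (without mouse 7) to 5 were called in SSC against CSP and 3 to 5 in CSP against Thy. The JUN by population test called 0 genes in every setting run. Array counts of 2 a group limit what can be detected, and the files used here give no detection call for dim probe sets.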
